A study of Triticum aestivum with 18 samples.

Results

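Cysteine proteinases and serine carboxypeptidases were followed in germinating wheat grain of 3 varieties. A total of 155 loci of the 94141 in the expression table carried a description naming a cathepsin, a cysteine proteinase or protease, an aleurain, an oryzain, a vacuolar-processing enzyme, a legumain or a serine carboxypeptidase, with inhibitors left out. The 79 loci that reached 1 FPKM (a level in sequenced fragments scaled for transcript length and library size) in at least 3 of the 18 libraries were taken as members. The level values therefore chose the members, and their presence in the grain is not a finding.

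The libraries came from the varieties ZM22, BN207 and BN607, which the study describes as intolerant, intermediate and tolerant to waterlogging. Seeds of the waterlogging groups (W72_ZM22, W72_BN207 and W72_BN607) were held under 10 cm of water for 72 h and then germinated for 72 h, whereas the control seeds (C72_ZM22, C72_BN207 and C72_BN607) imbibed water for 24 h and germinated for 72 h. Each group had 3 libraries. By the study's methods, RNA was taken from grain freed of its radicle and coleoptile. No genotype was altered, and the groups differ in time since first wetting as well as in submergence, which cannot be told apart. Each treatment was run in triplicate, and its replicates are called biological by the study. The labels give 5 repetitions of each treatment and do not say which of them became libraries.

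In cereal grain, the proteins stored in the starchy endosperm and aleurone are broken down after germination to feed the embryo. Papain-type cysteine proteinases, secreted by the aleurone and scutellum, cut the storage proteins internally, and serine carboxypeptidases remove single amino acids from the C-terminal ends of the fragments. Vacuolar-processing enzymes, also called legumains, are cysteine proteinases that cut after asparagine, and cystatins inhibit the papain-type enzymes. The secreted enzymes of the aleurone are known to be induced by gibberellin, as are the alpha-amylases.

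One library went against its label. Among 165 loci that were at 1 FPKM or more in the other 5 BN207 libraries and under 0.1 FPKM in every BN607 library, 0 reached 1 FPKM in the library labelled W72_BN207 replicate 1. Among 171 loci with the opposite pattern, 169 reached it there. All comparisons below use the 18 libraries as labelled. The edgeR counts of members at an adjusted p are also given without that library. So are the BN207 counts of members, gliadins and glutenins that do not overlap. Other counts of the gene lists are given with all 18 libraries only. Summed counts were 68.755 M to 107.71 M per library (median 97.69 M). The tissue markers were uneven over the 18 libraries, in part between replicates of a group. The summed level of 33 alpha-amylase loci (secreted by aleurone and scutellum) ran from 1644 to 42101 FPKM over all libraries. It ran from 1644 to 26214 FPKM within W72_BN607 but only from 4483 to 9718 FPKM within C72_BN607. The sum of 222 histone loci (dividing cells) ran from 826 to 20914 FPKM over all libraries. It ran from 1578 to 20914 FPKM within W72_BN607 and from 4670 to 11839 FPKM within C72_BN607. Over all libraries, the sum of 17 gliadin and glutenin loci (starchy endosperm) ran from 0.159 to 271 FPKM. That of 27 photosystem and light-harvesting loci (green shoot) ran from 2.43 to 134 FPKM. Fewer cells of a type and less RNA per cell cannot be told apart in such bulk samples.

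The 79 members held between 0.541% and 3.04% of the summed FPKM of a library (median 1.20%). They comprised 4 cathepsin B loci, 23 other papain-type cysteine proteinases, 44 serine carboxypeptidases and 8 vacuolar-processing enzymes, and no aleurain passed. Subgenome A held 25 of them, subgenome B 24 and subgenome D 30, and 57 were assembled MSTRG loci. A total of 35 members were at 1 FPKM or more in all 18 libraries, and 19 were at 0 in at least 1 library. The mean level was at least 100 FPKM in 14 members, 10 to under 100 FPKM in 15 and lower in 50. The 13 most abundant members made up 79.1% to 96.4% of the summed FPKM of all members (median 90.5%). The levels are thus those of a few loci, and most of the members were minor.

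**Figure D1:**
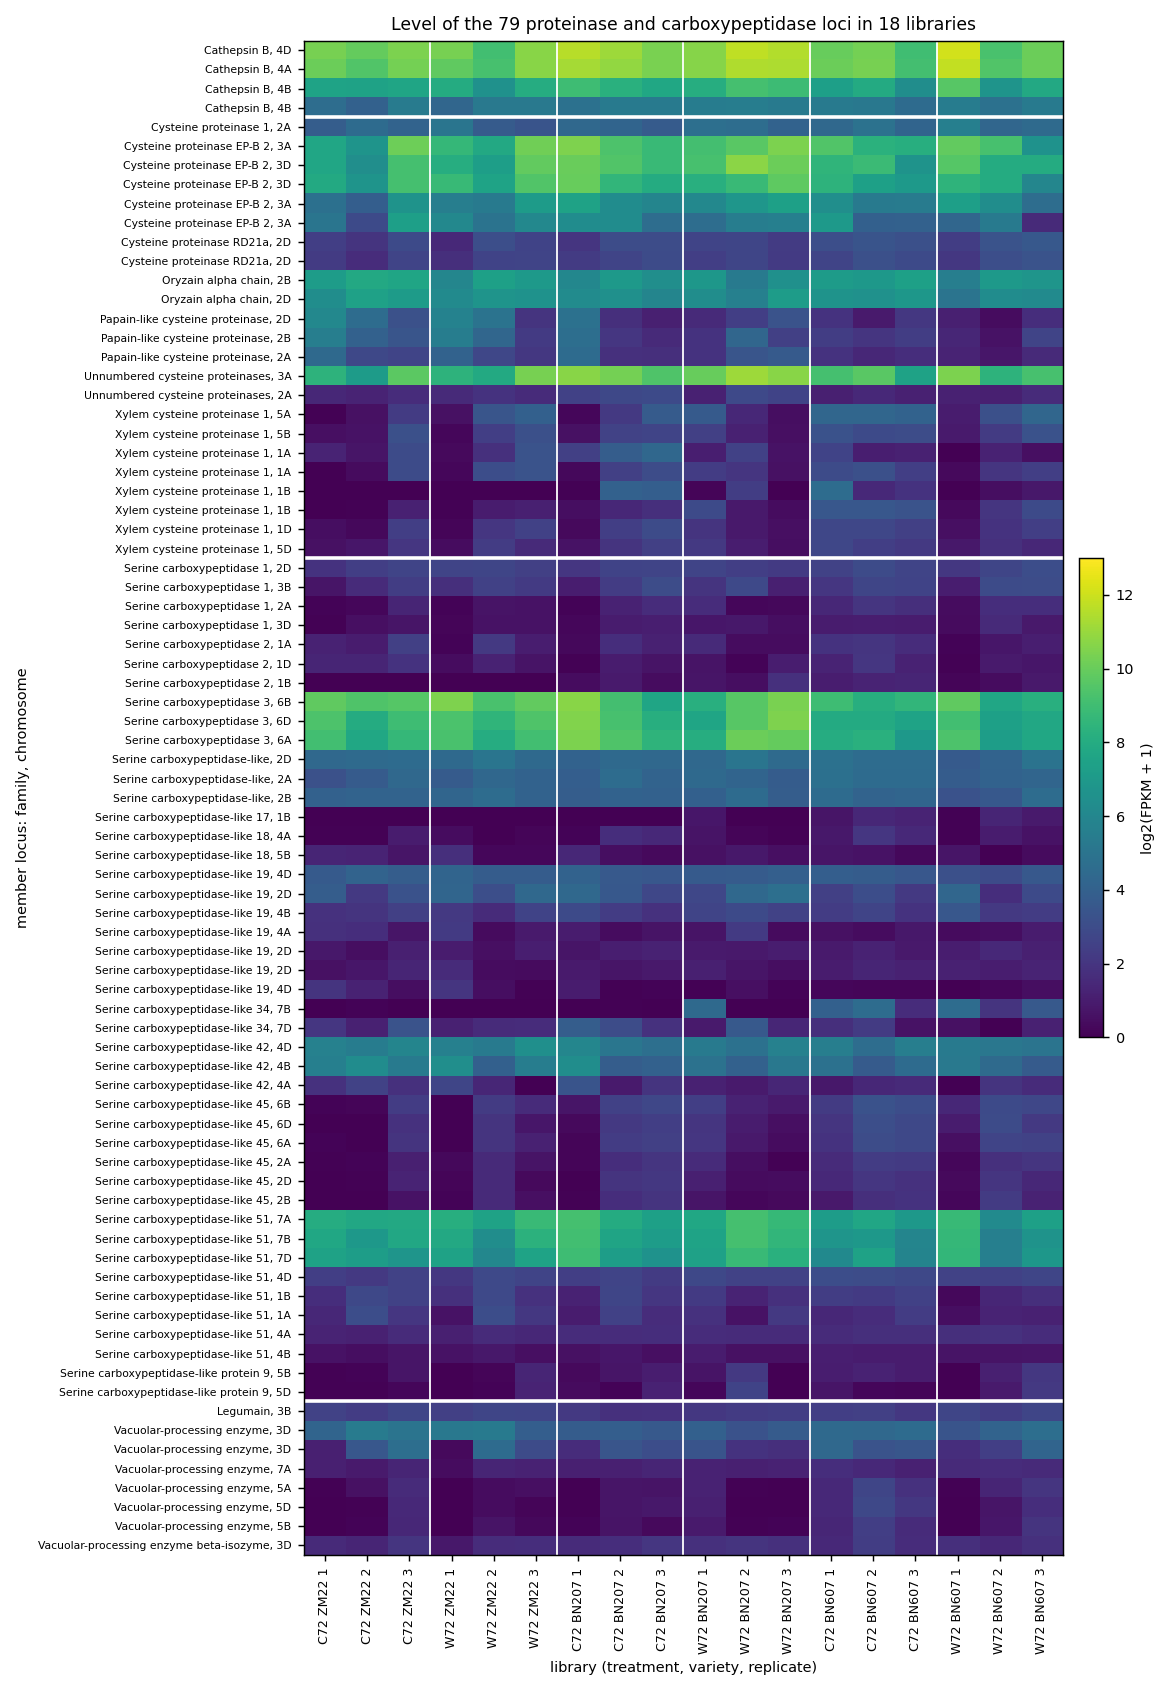
Colour gives log2(FPKM + 1) of each of the 79 member loci (rows, named by family and chromosome and grouped by class) in each of the 18 libraries (columns, by group and replicate). The leading cathepsin B and EP-B 2 loci, cysteine proteinase MSTRG.12586 on 3A, serine carboxypeptidase 3 and serine carboxypeptidase-like 51 on 7A, 7B and 7D form the bright rows in every library, while most other rows stay low.

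Of the 76 matching loci that were not members, 6 were at 0 in every library, 55 stayed under 1 FPKM and 15 reached it in only 1 or 2 libraries. The members just inside the threshold were TraesCS4B02G293300 (serine carboxypeptidase-like 51) and TraesCS3D02G173000 (serine carboxypeptidase 1), in which the third highest library was at 1.00 and 1.04 FPKM. The loci just outside were TraesCS3A02G099800 (serine carboxypeptidase-like 17, 0.931 FPKM) and TraesCS2B02G430900 (serine carboxypeptidase-like 19, 0.882 FPKM).

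Cathepsin B was the most abundant class per locus. Cathepsin B-like enzymes are papain-family proteinases whose transcripts are known from gibberellin-treated wheat aleurone. MSTRG.20208 (TraesCS4D02G061400, chromosome 4D, 37134742 to 37138156, minus strand, IWGSC RefSeq v1.0) was the member of highest mean level. Its FPKM values were 1271, 965 and 1401 in C72_ZM22 and 1276, 525 and 1667 in W72_ZM22. They were 3101, 2149.9 and 1337 in C72_BN207 and 1612, 3441 and 2886 in W72_BN207. They were 1004, 1257 and 516 in C72_BN607 and 4411, 606 and 1099 in W72_BN607. Treatment and control overlapped in every variety, and the highest value of all was W72_BN607 replicate 1.

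The 4A copy MSTRG.17716 (TraesCS4A02G252800, 565040316 to 565044235) lay close to it in every library, with a 4D to 4A ratio of FPKM between 0.845 and 1.40 (median 1.05). The 4B copy MSTRG.18637 (TraesCS4B02G062500, 54126447 to 54141064) was lower in FPKM, at 0.144 to 0.275 times the 4A copy. Its estimated counts were close to those of the 4A copy. In C72_ZM22 they were 160028, 167243 and 189356, beside 201703, 144330 and 257352 for the 4A copy. FPKM is scaled for transcript length, so the lower FPKM does not show fewer fragments from the 4B copy. A second 4B locus, MSTRG.18636, lies 85.0 kb from MSTRG.18637 and ran at 15.5 to 44.5 FPKM. Reads of such homeologous or neighbouring copies can be split uncertainly, so the share of each copy is less certain than their sum.

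The cysteine proteinases described as EP-B 2 lie in clusters on chromosomes 3A and 3D. EP-B is known in barley as an endoprotease that the aleurone and scutellum secrete and that cuts hordeins, the barley storage prolamins. On 3A, MSTRG.12586, MSTRG.12588, MSTRG.12589 and MSTRG.12592 lie between 656134715 and 656425275, and on 3D, MSTRG.16359 and MSTRG.16361 lie 37.0 kb apart from 520824123 to 520864131. MSTRG.12586, described only as a cysteine proteinase, was the most abundant of the 6 (mean 861 FPKM).

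MSTRG.12586 was at 336, 140.1 and 853 FPKM in C72_ZM22 and at 339, 233 and 1295 FPKM in W72_ZM22. It was at 1645, 1226 and 687 FPKM in C72_BN207 and at 1008, 2207 and 1673 FPKM in W72_BN207. It was at 581, 805 and 178 FPKM in C72_BN607 and at 1360.4, 336 and 599.5 FPKM in W72_BN607. The groups overlapped within each variety, and the 3 replicates of C72_ZM22 alone ran from 140.1 to 853 FPKM. The EP-B 2 loci MSTRG.12592 (mean 639 FPKM) and MSTRG.16359 (mean 559.8 FPKM) had the same wide ranges, 98.3 to 1447 FPKM and 85.0 to 1738 FPKM. The smaller cluster members MSTRG.16361, MSTRG.12589 and MSTRG.12588 had means of 376, 81.1 and 48.9 FPKM.

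Serine carboxypeptidase 3, whose wheat form is called CP-WIII, was the leading exopeptidase. It was expressed from all 3 subgenomes. MSTRG.28766 (TraesCS6B02G050700, chromosome 6B, 30147004 to 30151265) was at 903, 690.4 and 749.9 FPKM in C72_ZM22 and at 1412, 625 and 955 FPKM in W72_ZM22. It was at 1636, 548 and 197 FPKM in C72_BN207 and at 296, 775 and 1357 FPKM in W72_BN207. It was at 489.6, 279 and 372 FPKM in C72_BN607 and at 912, 207.3 and 292 FPKM in W72_BN607. The ZM22 libraries were all at 625 FPKM or more, whereas 5 of the 6 BN607 libraries were at 489.6 FPKM or less.

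The 6D copy MSTRG.30314 and the 6A copy MSTRG.27365 had means of 526 and 500.0 FPKM. The 6D to 6A ratio stayed between 0.725 and 1.53, while the 6B to 6A ratio ran from 0.554 to 3.28 (median 1.40). The 6B copy therefore kept a looser proportion to the others. The next serine carboxypeptidases were the serine carboxypeptidase-like 51 copies on 7A, 7B and 7D (MSTRG.32364, MSTRG.33829 and MSTRG.35709), with means of 276, 225 and 188 FPKM.

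**Figure D2:**
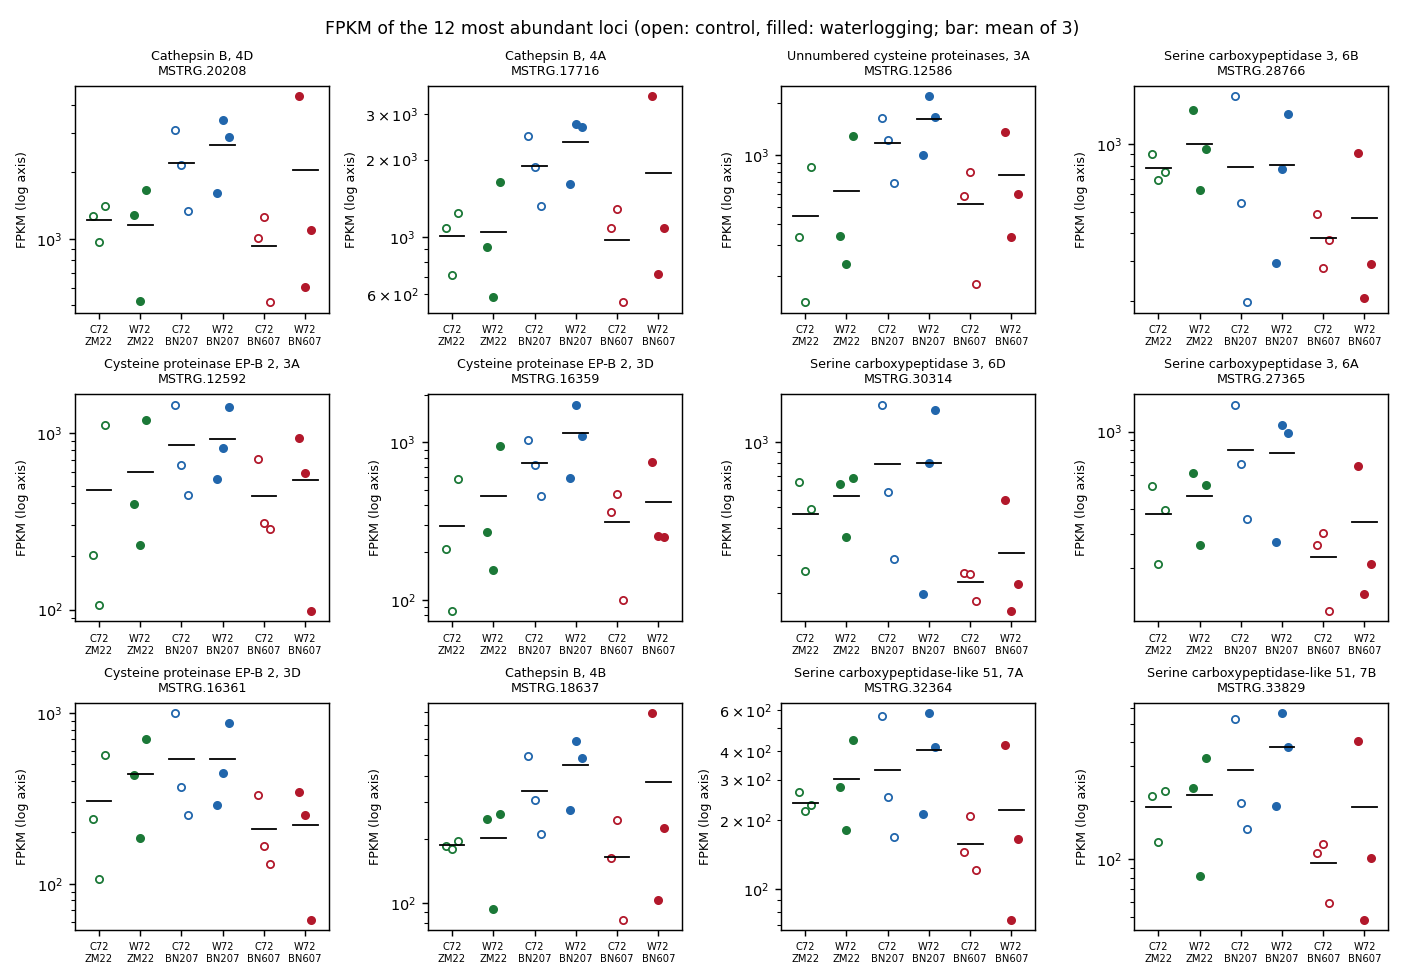
FPKM (log axis, not starting at 0) of the 12 most abundant members in the 6 groups, with 1 point per library and a bar at the mean of 3. Within each variety the control and waterlogging points overlap in all 12 panels, and W72_BN607 replicate 1 is the highest cathepsin B library, at 4411 FPKM for the 4D copy.

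The oryzain alpha copies were intermediate in level. Oryzain alpha is a cysteine proteinase of germinating rice seed. MSTRG.8844 (chromosome 2B, mean 119.7 FPKM) was at 143, 226 and 200.2 FPKM in C72_ZM22 and at 62.6, 165 and 128 FPKM in W72_ZM22. The ranges overlapped, since the second waterlogged library (165 FPKM) exceeded the first control (143 FPKM). The 2D copy MSTRG.10852 had a mean of 93.1 FPKM.

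Vacuolar-processing enzymes were minor, with a summed level of 19.5 to 72.8 FPKM over the 8 loci. The leading locus was MSTRG.15563 (TraesCS3D02G207600, chromosome 3D, 274336943 to 274342402, mean 20.4 FPKM), followed by MSTRG.16699 (mean 9.03 FPKM, range 0.258 to 24.7 FPKM) and the legumain TraesCS3B02G346000 (mean 4.26 FPKM). The legumain, from 2.45 to 5.66 FPKM, spanned a 2.31-fold range over the 18 libraries. MSTRG.16699 spanned a 95.4-fold range over the same libraries.

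The first comparison asked whether waterlogging changed these genes within a variety. No member passed an adjusted p of 0.05 in edgeR's quasi-likelihood test (Benjamini-Hochberg over all 50656 loci tested) in ZM22, BN207 or BN607. The share of all tested loci called was 0.00592% in ZM22, 0% in BN207 and 0% in BN607, so that the 0 of 79 members is near the background. At an unadjusted p under 0.05 the same test had 0, 2 and 1 members, against 1.09%, 1.89% and 2.12% of all tested loci. DESeq2 called 1, 1 and 0 members, against 0.284%, 0.541% and 0.0671% of all loci, and limma on log2(FPKM + 1) called 0 in each variety, against 0% of all loci. The DESeq2 calls were serine carboxypeptidase-like 34 MSTRG.34701 in ZM22, where its highest library was at 0.0815 FPKM, and serine carboxypeptidase-like 17 TraesCS1B02G023800 in BN207, where 1 library alone was above 0. By the thresholds of the study's own test, applied to the edgeR fit (unadjusted p under 0.05 and a log2 fold change beyond 1), 0, 2 and 1 members passed, against 0.813%, 1.61% and 1.32% of all loci.

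The median log2 fold change of the members (waterlogging minus control) was 0.05 in ZM22, -0.01 in BN207 and -0.12 in BN607, beside -0.02, -0.05 and 0.10 over all loci tested. Averaged over the varieties, edgeR called 0 members (0.00197% of all loci) and had 0 at an unadjusted p under 0.05 (2.72% of all loci) or past the study's thresholds (1.52%), with DESeq2 calling 1 (0.43% of all loci, TraesCS1B02G023800 again) and limma 0 (0%). The standard error (SE) of an edgeR value, here and below, is its absolute log2 fold change divided by the square root of the test's F statistic. It was back-calculated rather than fitted, so a multiple of SE restates F. The median SE of a member's response was 0.88, 0.88 and 0.89 on the log2 scale in ZM22, BN207 and BN607. Members with a change of more than 2 SE, such as MSTRG.2273 in BN607 and MSTRG.34701 in BN207, still had an adjusted p of 1 by edgeR. The difference of the response between varieties was also tested, with 0 members called by edgeR for BN207 against ZM22, BN607 against ZM22 and BN607 against BN207 (0.00395%, 0.00395% and 0% of all loci). At an unadjusted p under 0.05 there were 1, 0 and 2 members (1.49%, 1.37% and 1.36% of all loci), and 1, 0 and 2 past the study's thresholds (1.4%, 1.15% and 1.23%). DESeq2 called 2, 1 and 1 members (0.458%, 0.215% and 0.322% of all loci), all of them MSTRG.34701 or TraesCS1B02G023800, and limma called 0 (0%). Without the library labelled W72_BN207 replicate 1, edgeR again called 0 members in the responses of ZM22, BN207, BN607 and their average (0.00395%, 0%, 0.00197% and 0.00395% of all loci) and in the 3 differences (0.00395%, 0.00592% and 0.00197%).

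**Figure D3:**
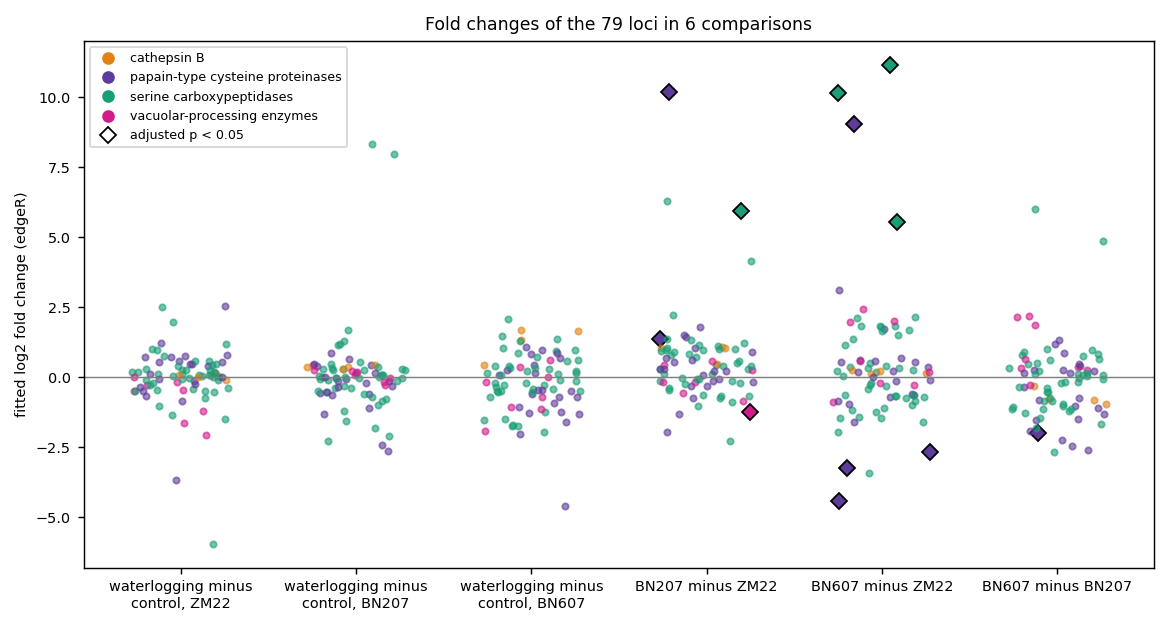
Fitted log2 fold changes of the 79 members in the 3 waterlogging responses and the 3 differences between varieties, with 1 point per locus, coloured by class, and diamonds for an adjusted p under 0.05 (edgeR). The responses hold no diamond, and the variety differences hold 4, 7 and 1.

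In ZM22, the members of smallest p were the oryzain alpha copies MSTRG.8844 (log2 fold change -0.86, SE 0.41, unadjusted p = 0.0542 by edgeR, adjusted p = 1) and MSTRG.10852 (-0.66, SE 0.42), and the xylem cysteine proteinase 1 locus MSTRG.21892 (2.55, SE 1.56). Xylem cysteine proteinase 1 is named after an Arabidopsis vacuolar enzyme of differentiating vessel elements. MSTRG.21892 was at 0.0371, 0.490 and 3.85 FPKM in C72_ZM22 and at 0.516, 9.67 and 14.8 FPKM in W72_ZM22. Control and waterlogging overlapped there.

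In BN207, the smallest p-values belonged to 2 serine carboxypeptidase-like loci and rested on the library that went against its label. MSTRG.34701 (serine carboxypeptidase-like 34) had a log2 fold change of 7.97 (SE 2.83, unadjusted p = 0.0151 by edgeR, adjusted p = 1), and TraesCS1B02G023800 (serine carboxypeptidase-like 17) one of 8.32 (SE 2.95, unadjusted p = 0.0218, adjusted p = 1). Both were at 0 in W72_BN207 replicates 2 and 3, and at 20.8 and 0.741 FPKM in replicate 1. Serine carboxypeptidase-like MSTRG.10782 followed (0.45, SE 0.25).

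In BN607, serine carboxypeptidase-like 51 MSTRG.2273 was at 4.08, 3.57 and 4.68 FPKM in C72_BN607 and at 0.198, 1.62 and 2.41 FPKM in W72_BN607. All 3 waterlogged libraries lay below all controls, and the fitted log2 fold change was -1.51 (SE 0.63, unadjusted p = 0.0312 by edgeR, adjusted p = 1). The others of smallest p were MSTRG.1743 (-4.62, SE 2.28) and the 4B cathepsin B MSTRG.18637 (1.68, SE 0.85, unadjusted p = 0.0690 by edgeR). The cathepsin B value rested on 1 library, since MSTRG.18637 was at 793 FPKM in W72_BN607 replicate 1 and at 103 and 227 FPKM in the others, beside 163, 248 and 83.3 FPKM in the controls.

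In BN607, 14 of the 79 members were lower in all 3 waterlogged libraries than in all 3 controls and 0 were higher. Of all tested loci, 7.95% were lower and 1.49% higher in that way, 9.44% in either direction. The 14 comprised 5 of the 8 xylem cysteine proteinase 1 loci, 4 of the 8 serine carboxypeptidase-like 51 loci, all 3 serine carboxypeptidase 2 loci, the 2D oryzain alpha and an unnumbered serine carboxypeptidase-like locus on 2A. For example, MSTRG.1717 (xylem cysteine proteinase 1, chromosome 1B) was at 10.5, 10.4 and 9.10 FPKM in C72_BN607 and at 0.241, 3.02 and 6.58 FPKM in W72_BN607. None of the 14 passed the adjusted threshold. TraesCS1B02G104500 (serine carboxypeptidase 2) reached 1 FPKM in only 4 libraries, among them all 3 controls of BN607. A lower level in W72_BN607 is thus partly built into its choice. TraesCS4B02G293300 (serine carboxypeptidase-like 51) reached it in only 3 libraries, all of BN207 or BN607, so the same may hold for it.

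The C72_BN607 libraries were close to each other, with a median ratio of highest to lowest replicate of 1.86 over the members, while in W72_BN607 it was 5.60. In ZM22 only MSTRG.3653 (serine carboxypeptidase 2) did not overlap, lower under waterlogging, where 1.57% of all loci were lower, 1.83% higher and 3.4% either. In BN207, 0 members failed to overlap, where 1.95% were lower, 1.66% higher and 3.62% either. Without the library labelled W72_BN207 replicate 1, which leaves 2 waterlogged libraries, 4 members were lower and 5 higher, where 9.78% of all loci were lower and 4.66% higher. Among the 222 histone loci, 0 failed to overlap in any variety, and among the 33 alpha-amylase loci, 2 in ZM22 (both higher under waterlogging) and 0 in the other varieties failed to.

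The second comparison was between varieties, with both treatments averaged so that each had 6 libraries. Between BN207 and ZM22, 4 members of 79 were called, 3 higher and 1 lower in BN207, where 4.63% of all loci were called (2.42% higher and 2.21% lower). Between BN607 and ZM22, 7 were called, 4 higher and 3 lower in BN607, where 10.6% of all loci were called (3.84% higher and 6.8% lower). Between BN607 and BN207, 1 was called, lower in BN607, where 1.52% of all loci were called (0.29% higher and 1.23% lower). At the adjusted threshold the shares of members are near the background or below it. At an unadjusted p under 0.05 there were 10, 19 and 15 members (16.8%, 27.7% and 9.53% of all loci), and past the study's thresholds 7, 14 and 14 (11%, 18.3% and 6.62%). For BN607 minus BN207 these 2 counts are a larger share of the 79 members than of all loci. Past the study's thresholds, 12 members were lower and 2 higher in BN607. The cause of that excess was not tested. DESeq2 called 6, 12 and 5 members (10.4%, 20% and 4.67% of all loci) and limma 4, 7 and 2 (6.02%, 11.8% and 2.69%). The median log2 fold change of the members was 0.40, 0.17 and -0.17, beside 0.07, 0.06 and 0.01 over all loci. A single member (TraesCS1B02G023800) passed the level filter through BN607 alone and 10 through only 2 varieties, so a difference between varieties is built into their choice. The latter include 3 of the 9 loci called, MSTRG.1743, MSTRG.34701 and TraesCS1B02G104500, through BN207 and BN607.

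Without the library labelled W72_BN207 replicate 1, the edgeR counts were 4, 8 and 4, with 4.7%, 10.5% and 4.11% of all loci called. The count between BN607 and ZM22 also depended on other single libraries, as did the share of all loci called. It was 16 without C72_ZM22 replicate 3 (19% of all loci). It was 4 without C72_ZM22 replicate 1 (6.59%), C72_ZM22 replicate 2 (6.44%) or W72_BN607 replicate 2 (6.55%), and 3 without W72_ZM22 replicate 1 (6.72%), C72_BN607 replicate 1 (6.04%) or C72_BN607 replicate 2 (5.54%). The count between BN207 and ZM22 was 1 without C72_ZM22 replicate 2 (2.82% of all loci) or W72_BN207 replicate 2 (3.06%), and 2 without C72_BN207 replicate 3 (2.75%).

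The 1B locus of serine carboxypeptidase 2, the enzyme called carboxypeptidase II in wheat and barley grain, had the smallest adjusted p against ZM22 in both other varieties. TraesCS1B02G104500 (chromosome 1B, 115278975 to 115282343, minus strand) was at 0, 0 and 0.0274 FPKM in C72_ZM22 and at 0.0275, 0.0294 and 0 FPKM in W72_ZM22. It was at 0.366, 0.925 and 0.353 FPKM in C72_BN207 and at 0.647, 0.406 and 2.44 FPKM in W72_BN207. It was at 1.04, 1.46 and 1.57 FPKM in C72_BN607 and at 0.142, 0.331 and 0.821 FPKM in W72_BN607. Every BN207 and BN607 library lay above every ZM22 library. The locus passed the level filter through BN207 and BN607 alone, so a difference from ZM22 is partly built into its choice. The log2 fold change was 5.93 for BN207 minus ZM22 (SE 0.96, adjusted p = 0.00179 by edgeR) and 5.53 for BN607 minus ZM22 (SE 0.95, adjusted p = 0.00206), and both calls held in all 25 alternative settings. The counts in ZM22 were 0 to 6 per library, so the size of the fold depends on the handling of near-zero counts. The 1A and 1D loci of the family were not called. In C72_ZM22, MSTRG.281 on 1A had counts of 241, 192 and 876, and MSTRG.3653 on 1D had 280, 301 and 561. The mean sum of the 3 loci was 4.19 FPKM in C72_ZM22, 2.34 in C72_BN207 and 5.97 in C72_BN607. Under waterlogging it was 2.32, 2.62 and 1.66 FPKM in the same order. The difference is thus one of the 1B locus and not of the family.

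Cysteine proteinase MSTRG.6997 (TraesCS2A02G584900, chromosome 2A, 776037737 to 776042834) was highest in BN207. It was at 1.74, 1.48 and 2.18 FPKM in C72_ZM22 and at 1.88, 2.71 and 2.01 FPKM in W72_ZM22. It was at 4.74, 6.14 and 6.46 FPKM in C72_BN207 and at 1.27, 6.35 and 5.16 FPKM in W72_BN207. It was at 1.24, 1.82 and 1.29 FPKM in C72_BN607 and at 1.26, 1.17 and 2.002 FPKM in W72_BN607. The other 5 BN207 libraries lay above all libraries of ZM22 and BN607, and only the library labelled W72_BN207 replicate 1 (1.27 FPKM) fell within the BN607 range. The log2 fold change was 1.36 for BN207 minus ZM22 (SE 0.30, adjusted p = 0.0187 by edgeR) and -2.002 for BN607 minus BN207 (SE 0.31, adjusted p = 0.00854). Without that library the edgeR values were 1.59 (SE 0.16, adjusted p = 2.69e-05) and -2.23 (SE 0.16, adjusted p = 2.85e-06), and BN607 minus ZM22 was -0.64 (SE 0.15, adjusted p = 0.0163, against 0.185 with all 18).

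The vacuolar-processing enzyme MSTRG.15563 was lowest in BN207. It was at 17.3, 41.5 and 31.3 FPKM in C72_ZM22 and at 35.7, 39.4 and 13.6 FPKM in W72_ZM22. It was at 12.5, 13.9 and 11.4 FPKM in C72_BN207 and at 14.8, 8.74 and 12.2 FPKM in W72_BN207. It was at 20.8, 20.001 and 22.5 FPKM in C72_BN607 and at 9.23, 16.9 and 24.9 FPKM in W72_BN607. Values of ZM22 and BN207 overlapped only at 13.6 FPKM, the lowest ZM22 library. The log2 fold change of BN207 minus ZM22 was -1.26 (SE 0.28, adjusted p = 0.0180 by edgeR) and the call held in 22 of 25 alternative settings. For BN607 minus ZM22 edgeR gave -0.89 (SE 0.28, adjusted p = 0.0539), and the second vacuolar-processing enzyme MSTRG.16699 did not pass in any variety comparison.

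The 3 loci described as papain-like cysteine proteinases, on the group 2 chromosomes, were lower in BN607 than in ZM22. MSTRG.9680 (chromosome 2D, 152097422 to 152098713) was at 66.9, 23.2 and 8.26 FPKM in C72_ZM22 and at 53.5, 29.8 and 2.93 FPKM in W72_ZM22. It was at 2.78, 0.943 and 3.36 FPKM in C72_BN607 and at 1.24, 0.342 and 2.22 FPKM in W72_BN607. Of the ZM22 libraries only W72_ZM22 replicate 3 (2.93 FPKM) fell within the BN607 range, and BN207 ran from 1.24 to 28.1 FPKM. The log2 fold change of BN607 minus ZM22 was -4.41 (SE 1.03, adjusted p = 0.0144 by edgeR) for MSTRG.9680. By edgeR it was -3.24 (SE 0.89, adjusted p = 0.0315) for MSTRG.7649 on 2B and -2.69 (SE 0.74, adjusted p = 0.0320) for MSTRG.5592 on 2A. The calls held in 24, 16 and 18 of 25 alternative settings. Most of these settings leave out 1 library, and those without a BN207 library remove no value from this comparison. The calls of MSTRG.7649 and MSTRG.5592 were lost mostly in settings without a ZM22 or BN607 library.

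The remaining loci called between varieties were close to absent in ZM22. None of them reached 1 FPKM in a ZM22 library, so a difference from ZM22 is partly built into their choice. MSTRG.34701 (serine carboxypeptidase-like 34, TraesCS7B02G416000, chromosome 7B, 683466721 to 683468766) was at 0.0221, 0.0815 and 0 FPKM in C72_ZM22 and at 0 FPKM in all W72_ZM22 libraries. It was at 15.1, 23.2 and 2.10 FPKM in C72_BN607 and at 23.4, 2.86 and 11.6 FPKM in W72_BN607. It was at 0.0319, 0.0374 and 0 FPKM in C72_BN207 and at 20.8, 0 and 0 FPKM in W72_BN207. The locus was thus detected in every BN607 library and, of the BN207 libraries, at more than a trace only in the library labelled W72_BN207 replicate 1.

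For MSTRG.34701 the log2 fold change of BN607 minus ZM22 was 11.16 (SE 2.46, adjusted p = 0.0137 by edgeR), and the call held in all 25 alternative settings. BN607 minus BN207 did not pass edgeR's test with all libraries (4.87, SE 1.73, adjusted p = 0.289). Without W72_BN207 replicate 1 edgeR gave 11.50 (SE 1.76, adjusted p = 0.00299). The related 7D locus MSTRG.36441 was detected in all 18 libraries (0.0208 to 13.5 FPKM) and did not pass in any comparison by edgeR.

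TraesCS1B02G023800 (serine carboxypeptidase-like 17, chromosome 1B, 11177447 to 11182638) was at 0 in all 6 ZM22 libraries and in 5 of 6 BN207 libraries. It was at 0.683, 1.68 and 1.43 FPKM in C72_BN607 and at 0.0620, 1.497 and 0.947 FPKM in W72_BN607. Against a floor of 3 counts per library in ZM22, BN607 was at least 41.9-fold higher (adjusted p = 0.0240 by edgeR), and the call held in 18 of 25 alternative settings. The locus passed the level filter through BN607 alone, so this difference is built into its choice and the call is no independent evidence of it. Between BN607 and BN207 the adjusted p was 0.227 with all libraries and 0.00946 without the library labelled W72_BN207 replicate 1.

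MSTRG.1743 (xylem cysteine proteinase 1, TraesCS1B02G038900, chromosome 1B, 18570322 to 18571755) was at 0 in 5 of 6 ZM22 libraries and at 0.0261 FPKM in the other. It was at 0.0550, 15.5 and 13.7 FPKM in C72_BN207 and at 0.119, 4.14 and 0 FPKM in W72_BN207. It was at 23.5, 1.86 and 2.78 FPKM in C72_BN607 and at 0, 0.390 and 0.816 FPKM in W72_BN607. The spread within BN207 and BN607 reached from 0 to the highest values. The log2 fold change was 10.17 for BN207 minus ZM22 (SE 2.34, adjusted p = 0.0274 by edgeR) and 9.06 for BN607 minus ZM22 (SE 2.30, adjusted p = 0.0266), and the calls held in only 13 and 17 of 25 alternative settings.

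**Figure D4:**
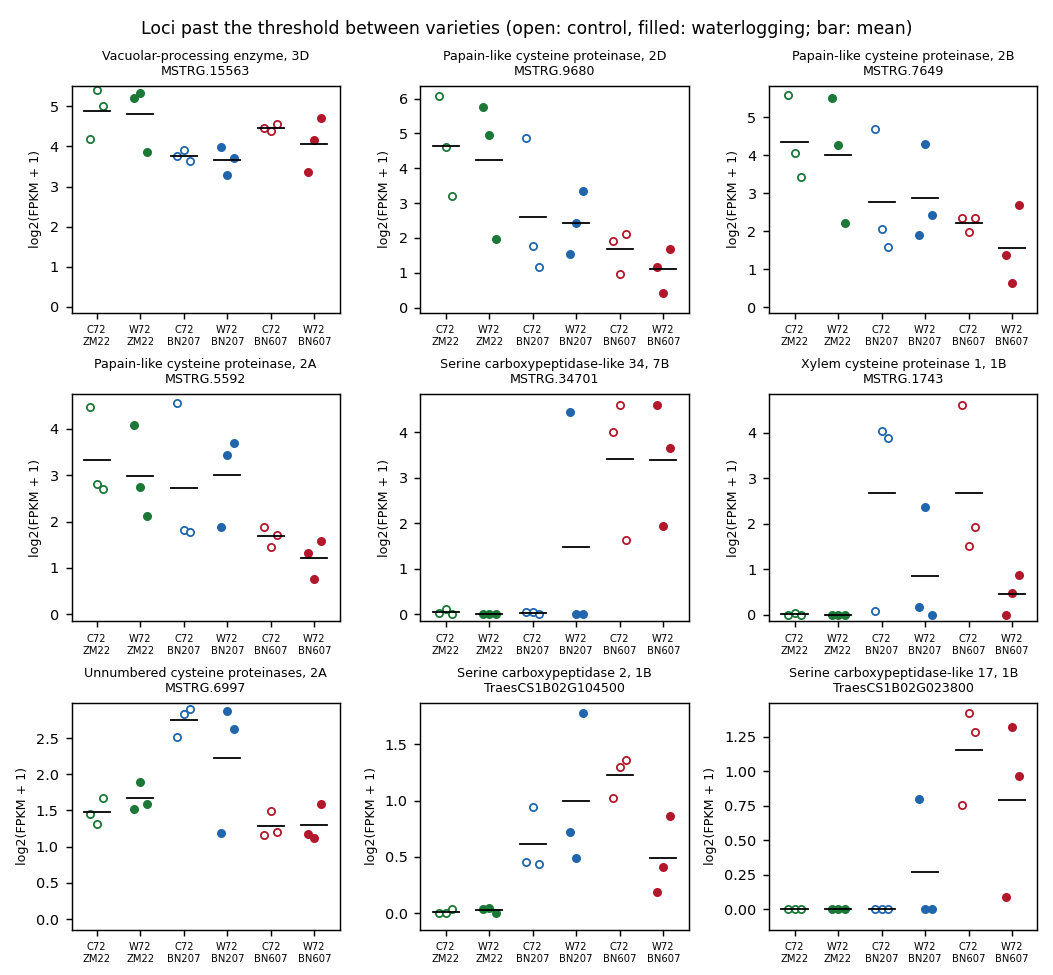
log2(FPKM + 1) of the 9 members with an adjusted p under 0.05 (edgeR) in at least 1 comparison of varieties, with 1 point per library and a bar at the mean of 3. MSTRG.34701 shows the library labelled W72_BN207 replicate 1, at 20.8 FPKM, apart from the other BN207 libraries, which are at or near 0.

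None of the 13 most abundant members passed between varieties by edgeR. The 4D cathepsin B MSTRG.20208 had a log2 fold change of 1.06 for BN207 minus ZM22 (SE 0.59, adjusted p = 0.402 by edgeR) and the 6D serine carboxypeptidase 3 MSTRG.30314 one of -1.83 for BN607 minus BN207 (SE 0.62, adjusted p = 0.236). DESeq2 called MSTRG.30314 in that comparison (-1.81, SE 0.57, adjusted p = 0.0354). By edgeR, the EP-B 2 locus MSTRG.16359 had 1.42 for BN207 minus ZM22 (SE 0.64, adjusted p = 0.275). These edgeR differences lay within 3 SE of 0.

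Most of the variation of the members lay between replicates. The median share of a member's variance of log2(FPKM + 1) was 26.8% between varieties, 7.90% between treatments within a variety and 62.6% within groups, beside 21.7%, 7.86% and 67.0% over all tested loci. The median level of the histone loci, on the log2(FPKM + 1) scale, showed the same unevenness. It was 1.28, 1.35 and 4.06 in C72_ZM22, 1.76, 4.70 and 2.53 in W72_ZM22, and 1.503, 4.77 and 5.61 in C72_BN207. It was 4.09, 3.19 and 2.56 in W72_BN207, 4.11, 5.31 and 5.36 in C72_BN607, and 2.51, 6.14 and 4.49 in W72_BN607. Replicates of one group thus spanned much of the range of all libraries, and C72_BN607 alone was uniformly high.

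The level of each tested locus was therefore related to that median over the 18 libraries (Pearson's r, permutation test with 100000 resamples, two-sided, adjusted over the 50656 loci; the alpha-amylase list was run in the same way). Histone level was related to 31 members positively and 16 negatively, where 46.6% and 14.4% of all loci were, which makes 47 of 79 members against 60.9% of all loci. The families differed in direction. All 6 serine carboxypeptidase-like 45 loci were positive (r from 0.93 to 0.98), as were all 4 serine carboxypeptidase 1 loci, both loci of RD21a (named after a dehydration-responsive Arabidopsis proteinase), 6 of the 8 xylem cysteine proteinase 1 loci and 5 of the 6 loci described as vacuolar-processing enzyme without an isozyme name. All 3 serine carboxypeptidase 3 loci (r from -0.85 to -0.59) and all 3 papain-like cysteine proteinases (r from -0.76 to -0.68) were negative. The papain-like loci were also lower in BN607 than in ZM22, where the histone list was higher (median log2 fold change 1.85). Their r over the 18 libraries includes that difference between varieties. None of the cathepsin B, EP-B 2 or oryzain alpha loci passed.

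MSTRG.30674 (serine carboxypeptidase-like 45, chromosome 6D) was at 0.0208 and 0.0192 FPKM in C72_ZM22 replicates 1 and 2 and at 0 in W72_ZM22 replicate 1, which with C72_BN207 replicate 1 (0.238 FPKM) were the libraries of lowest histone level, and reached 7.58 FPKM in C72_BN607 replicate 2. Its r with the histone level was 0.98 and its Spearman's rho 0.95 (both permutation p = 1e-05, the smallest that this number of resamples can give, adjusted p = 8.13e-05 and 9.43e-05). The r was 0.97 without the 2 libraries farthest from the median, and 0.99, 0.97 and 0.97 within ZM22, BN207 and BN607.

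The 6B serine carboxypeptidase 3 MSTRG.28766 ran the other way, with r = -0.85 and rho = -0.83 (permutation p = 2e-05 and 3e-05, adjusted p = 0.000131 and 0.000206). The r was -0.91 without the 2 farthest libraries and -0.51, -0.92 and -0.93 within the 3 varieties in the same order. With the alpha-amylase level it was positive (r = 0.72, rho = 0.80, adjusted permutation p = 0.0235 and 0.00978, r = 0.71 without the 2 farthest libraries). All 3 serine carboxypeptidase 3 loci and 3 of the 8 serine carboxypeptidase-like 51 loci were positively related to the alpha-amylases, as were 8 members in all, with 21 negative (4.68% and 27.1% of all loci, 31.8% either). The 4D cathepsin B MSTRG.20208 did not pass with either list (r = -0.48 with histones, adjusted permutation p = 0.0642, rho = -0.42, and r = 0.48 with alpha-amylases, adjusted p = 0.0973, rho = 0.53), although its r with histones was -0.46, -0.83 and -0.88 within the varieties. The part of the tissue markers in the differences between groups was not tested.

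**Figure D5:**
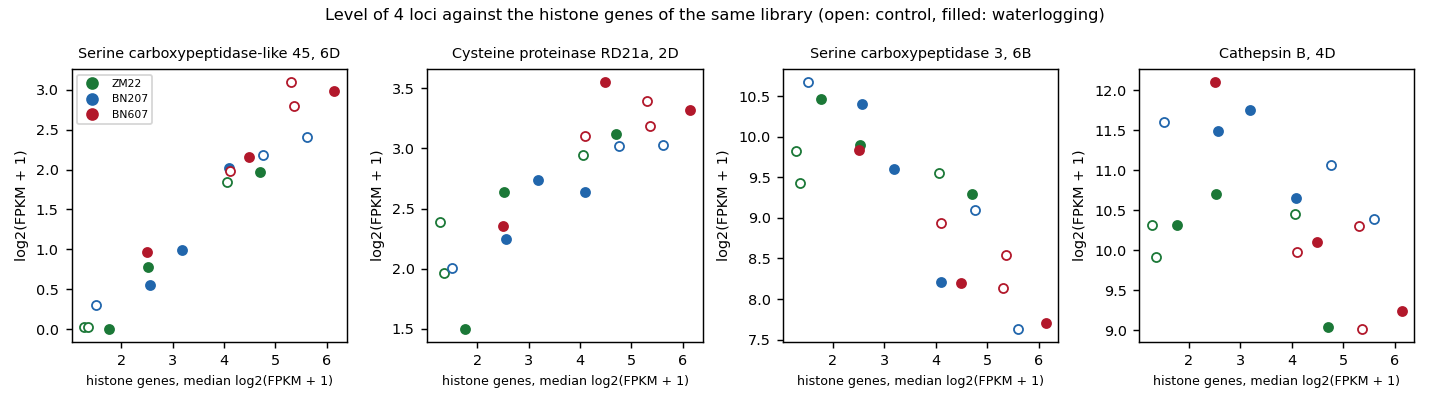
log2(FPKM + 1) of 4 members against the median log2(FPKM + 1) of the histone loci in the same library, with 1 point per library, coloured by variety. Serine carboxypeptidase-like 45 rises with the histones (r = 0.98), serine carboxypeptidase 3 on 6B falls (r = -0.85), RD21a on 2D rises (r = 0.87) and cathepsin B on 4D did not pass the test (r = -0.48).

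Other genes of protein mobilisation were read from lists of descriptions. None of their loci was called in any waterlogging response by edgeR. Cystatins, the inhibitors of papain-type enzymes, had 0 loci higher and 7 lower of 22 in BN607 than in ZM22, where 3.84% of all loci were higher and 6.8% lower, and the median log2 fold change of the list was -1.19 beside 0.06 over all loci. The most abundant cystatin locus, MSTRG.12623 (inhibitor TrcC-6), had a median of 189 FPKM. The same contrast had 1 higher and 5 lower of 49 aspartic proteinases, 0 and 3 of 25 subtilisins, 1 and 1 of 26 aminopeptidases, 2 and 4 of 79 amino acid and peptide transporters, and 0 and 4 of 33 alpha-amylases. The loci of highest level in these lists were an aspartic proteinase (MSTRG.1526, median 165 FPKM), a subtilisin-like protease (MSTRG.24317, 41.0 FPKM), leucine aminopeptidase 2 (MSTRG.29986, 260.1 FPKM), peptide transporter PTR2 (MSTRG.17747, 11.9 FPKM) and an alpha-amylase (MSTRG.31242, 1596 FPKM).

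Transcripts of the storage proteins themselves were at low levels for gliadins and glutenins and higher for globulins. The members were chosen by description, and which of them act on storage proteins was not tested. The leading loci were a gamma-gliadin (MSTRG.3396, median 0.330 FPKM) and globulin-3A (MSTRG.17878, median 85.4 FPKM). Of 14 storage globulin loci, 3 were lower and 0 higher in BN607 than in ZM22, where 6.8% and 3.84% of all loci were. A total of 91 gliadin and glutenin loci matched, and 17 passed the level filter. Of the 17, 10 in ZM22 and 12 in BN207 were lower in all waterlogged libraries than in all controls, where 1.57% and 1.95% of all loci were. In BN607, 2 were (7.95% of all loci). Without W72_BN207 replicate 1 the BN207 count was again 12, where 9.78% of all loci were lower. The list median of log2(FPKM + 1) was 3.97 in C72_ZM22 replicate 1, and 2.36 and 1.16 in C72_BN207 replicates 1 and 3. The next highest library, C72_BN607 replicate 1, was at 0.371. The level filter thus leaned on those controls, so a lower level under waterlogging is partly built into the choice of these loci. The summed level of the list was 271, 3.04 and 2.47 FPKM in C72_ZM22 and 0.639, 0.159 and 2.83 FPKM in W72_ZM22. It was 70.1, 8.74 and 24.9 FPKM in C72_BN207 and 5.74, 5.98 and 1.45 FPKM in W72_BN207. The sums of ZM22 overlapped, and C72_ZM22 replicate 1 alone was far above the other ZM22 libraries, whereas the sums of BN207 did not overlap. The median log2 fold change of that list under waterlogging was -7.87 in ZM22, a value that includes that high control, -3.96 in BN207 and -0.48 in BN607, and 0 of the 17 passed the adjusted threshold of edgeR in any of them. Gliadin and glutenin genes belong to multigene families, so reads may be shared between these loci.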

How the data were processed

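The data were RNA-seq libraries of germinating wheat grain, 3 in each of 6 groups. The deposited table gave FPKM and an estimated count per locus and library, made by the authors with HISAT and StringTie on IWGSC RefSeq v1.0, with transcripts merged over samples. The estimated counts are whole numbers as deposited, but 49.0% of those from 1 to 19 are multiples of 4, so they were treated as coverage-based estimates. The time under water and the variety came from the labels. Members and lists were chosen with earlier results of these data known.

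The 50656 loci with at least 1 FPKM in 3 or more libraries were fitted with edgeR 4.0.16 (R 4.3.3, TMM scaling, quasi-likelihood test, 6 group means, Benjamini-Hochberg adjustment, threshold 0.05). The common biological coefficient of variation was 0.676. Relations to marker lists used 100000 permutations in NumPy 2.4.6 (Python 3.11.15, pandas 2.3.3) on log2(FPKM + 1). The fit was run on simulated counts, with a required recovery set only at a spread below that of these data. Recovery at the spread of these data is not reported here. The alternatives were DESeq2 1.42.0, limma 3.58.1 on log2(FPKM + 1) or log2(FPKM + 0.1), other size factors, no level filter, a replicate block, the study's thresholds, each library left out, and, added after the data were seen, counts divided by 4. That makes 25 refits for each call. Refits without a library of a variety outside a comparison remove none of its values. The number of settings in which a call held is thus no measure of its robustness. The non-overlap counts of BN207 were also repeated without 1 library for the members, for the gliadins and glutenins and for all loci.

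Named were the 3 most abundant members of each class, those called in a contrast, the 3 of smallest p in each response, those off in all libraries of one variety (under 0.1 FPKM) and on in all of another, the 2 just inside and 2 just outside the threshold, and the most abundant locus of each list of protein mobilisation. Other loci were named as examples after their values were seen. Lists were matched by description. They were cystatins, aspartic proteinases, subtilisins, aminopeptidases, transporters, gliadins and glutenins, storage globulins, alpha-amylases, LEA proteins, histones, photosystem proteins, expansins and oleosins (0 matched). No sequence was printed.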

Additional observations from a re-analysis of the deposited data

How the results depend on the processing

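Each count of called members was recomputed under the alternatives. DESeq2 called 1 member in the response of ZM22 (0.284% of all loci), 1 in that of BN207 (0.541%) and 1 in the average over varieties (0.43%). It called 12 between BN607 and ZM22 (20% of all loci) and 5 between BN607 and BN207 (4.67%). Its count between BN207 and ZM22, given above, was also higher than that of edgeR (10.4% of all loci). In the differences of response it called 2, 1 and 1 (0.458%, 0.215% and 0.322% of all loci). The study's thresholds gave 2 in the response of BN207 (1.61% of all loci) and 1 in that of BN607 (1.32%). They gave 7, 14 and 14 between varieties (11%, 18.3% and 6.62% of all loci). In the differences of response they gave 1 for BN207 against ZM22 (1.4%) and 2 for BN607 against BN207 (1.23%). Between BN607 and BN207, limma gave 2 with a pseudocount of 1 and 3 with 0.1 (2.69% and 2.71% of all loci). With a replicate block the counts were 0 in every response and difference of response, and 3, 5 and 1 between varieties (4.09%, 9.95% and 1.31% of all loci). Whether the replicate numbers pair the libraries is not known. Of 9 pairs, 2 had a correlation of deviations over 0.1 (-0.447 to 0.534). That check had no null distribution, so it cannot exclude pairing. Leaving out each library in turn gave 1 to 5 between BN207 and ZM22 (2.75% to 7.21% of all loci), 3 to 16 between BN607 and ZM22 (5.54% to 19%), 1 to 4 between BN607 and BN207 (0.602% to 4.11%), and 0 to 0 in the others. Counts divided by 4, a choice made after seeing the data, gave 4, 8 and 1 between varieties (5.19%, 11.6% and 1.76% of all loci). The BN207 non-overlap without W72_BN207 replicate 1 was also added after seeing the data. The causes of these changes were not tested. Of 2275 values of named members under alternatives, 2218 stayed on their side of the threshold, 49 lost a call, 8 gained one and 0 reversed, while 91 turned sign with no call in either fit. Of 250 medians, 59 moved by more than 1 SD of the medians obtained without each library and 43 took the other sign. Depth and the spread between replicates were not compared as limits on detection.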

Other observations

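Among the marker lists not described above, 14 of 222 histone loci were higher and 1 lower in BN607 than in ZM22 by edgeR, with a median log2 fold change of 1.85 over the list. Of 27 photosystem and light-harvesting loci, 2 were higher and 0 lower, with a median of 2.12. LEA proteins and dehydrins, which accumulate in dry seed, had 2 higher and 2 lower of 42, and expansins, which loosen cell walls, had 0 higher and 1 lower of 29.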
